A study of Mus musculus with 4 samples.

Results

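The constitutive proteasome genes were taken as every gene symbol beginning with Psma, Psmb, Psmc, Psmd or Psme and a digit, without the immunoproteasome genes Psmb8, Psmb9 and Psmb10. This rule used names only and gave 42 of the 31053 genes in the feature table. They were followed in 10x 3′ single-cell libraries of CD45+ sorted cells from 2 control skins of uninoculated C57/BL6 mice and from 2 tumors. The tumors grew in C57/BL6 hosts aged 8 to 10 weeks after flank injection of 2323, a line cultured from a skin tumor of a mouse model driven by K14rtTA and tetOCre. The 2323 tumors therefore stand for 1 cell line, and since cells were sorted for CD45, the values describe immune cells and not the tumor cells. The deposited files held 3499, 3862, 5176 and 2258 cells in control skin 1, control skin 2, 2323 tumor 1 and 2323 tumor 2, and values are given in this order throughout. The labels do not say whether the 2 samples of a group came from separate mice, so p-values measure the spread between these samples.

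The proteasome degrades proteins tagged with ubiquitin. Its 20S core is a barrel of alpha and beta rings, in which Psmb5, Psmb6 and Psmb7 carry the cutting sites, and its 19S cap has a base of ATPases that unfold substrates and a lid that takes off ubiquitin. Immune cells can swap the 3 cutting subunits for Psmb8, Psmb9 and Psmb10, which interferon induces, and can cap the core with PA28, a ring of Psme1 and Psme2 products that favours the release of peptides for MHC class I. By role the members comprised 7 alpha ring genes, 4 structural and 3 catalytic beta ring genes, 6 ATPases, 3 other base genes, 8 lid genes, 3 chaperones of 19S assembly, 5 activator genes, 2 tissue-restricted core genes and 1 gene that shares only the name. The first 6 of these lists, 31 genes, are called structural subunits here.

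Psme1 and Psme2 are neighbours on chromosome 14. In GRCm38, Psme1 spans chr14:55578123-55581529 on the plus strand and Psme2 spans chr14:55587441-55591113 on the minus strand. Their start regions are shown because both genes lay higher in tumors in every class compared. Those of Psmb5 and Psmb6 are shown as examples from the 16 members called higher in cycling T cells. RefSeq held start regions for 35 of the 42 members, each from 250 bases before to 50 after the start in GRCm38.p6. Capitals mark a pair of GAAA with a gap of 2 bases, the core of an interferon-stimulated response element, in Psme1 and Psme2, and TGACNNNGC, the core of an antioxidant response element, in Psmb5 and Psmb6. Both were searched on both strands.
Psme1 (chr14:55578244-55578543, plus strand): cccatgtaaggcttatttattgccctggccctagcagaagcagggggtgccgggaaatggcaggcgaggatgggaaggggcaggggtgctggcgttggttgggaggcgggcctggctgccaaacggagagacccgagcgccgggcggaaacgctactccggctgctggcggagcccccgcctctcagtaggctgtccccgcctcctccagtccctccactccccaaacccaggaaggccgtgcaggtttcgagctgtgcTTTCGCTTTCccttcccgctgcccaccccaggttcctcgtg
Psme2 (chr14:55591052-55591351, minus strand): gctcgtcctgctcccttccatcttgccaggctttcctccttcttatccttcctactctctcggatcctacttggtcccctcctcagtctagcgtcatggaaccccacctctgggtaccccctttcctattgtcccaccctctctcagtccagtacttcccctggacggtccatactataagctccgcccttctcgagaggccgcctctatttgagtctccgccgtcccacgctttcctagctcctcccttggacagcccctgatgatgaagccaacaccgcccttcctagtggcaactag
Psmb5 (chr14:54617946-54618245, minus strand): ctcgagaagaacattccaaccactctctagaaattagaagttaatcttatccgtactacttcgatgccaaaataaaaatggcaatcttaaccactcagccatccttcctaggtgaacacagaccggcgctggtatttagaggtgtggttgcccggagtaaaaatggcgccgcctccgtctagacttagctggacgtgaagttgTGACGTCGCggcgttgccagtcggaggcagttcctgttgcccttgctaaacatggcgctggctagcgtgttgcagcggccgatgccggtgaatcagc
Psmb6 (chr11:70525107-70525406, plus strand): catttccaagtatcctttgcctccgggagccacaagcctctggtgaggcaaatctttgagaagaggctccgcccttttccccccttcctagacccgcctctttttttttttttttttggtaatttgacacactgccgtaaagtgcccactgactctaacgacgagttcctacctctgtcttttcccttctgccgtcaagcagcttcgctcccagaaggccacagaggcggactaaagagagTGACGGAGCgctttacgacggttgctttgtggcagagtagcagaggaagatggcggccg
In Psme1 the interferon motif stood 10 bases past the RefSeq start, read on the minus strand. The whole Psme1 window lies inside the GENCODE span given above, so the annotations place the start differently. The motif was not in the window printed for Psme2. Among members, 4 of 35 held it (11.4%, Psmb3, Psmd4, Psmd9 and Psme1), against 3.99% of 27025 genes with a window. The antioxidant motif was in 6 of 35 members (17.1%, among them Psmb5, Psmb6 and Psme4) and in 14.0% of all genes. It was not in the window of Psmb4, which was also called higher in cycling T cells. TTCNNNGAA, the letters of a gamma-activated site, were in 1 member (Psmd2, 2.86%) and in 9.55% of all genes. A match describes the letters and not a site in use.

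Cells were assigned to 14 classes by minimum UMIs of marker genes and maximum UMIs of markers of other cells. Classes are called by their markers ("macrophage-like" for C1q genes with Adgre1, Fcgr1 or Cd68). After the study's quality filters, 61.9% to 69.0% of immune cells per library fell in exactly 1 class. The rest entered no class but were part of the values over all immune cells. UMIs of each gene were summed per library and class, and 9 classes had at least 10 cells in every library. Values are UMIs per 10,000 UMIs of the class. The classes were of very different sizes, from 64, 195, 1634 and 579 macrophage-like cells to 12, 34, 27 and 21 mast-like cells. DETC-like cells, the dendritic epidermal T cells of skin, numbered 610 and 657 in control skin but 12 and 20 in tumors. At most 7 cell barcodes were shared between any pair of libraries. Cells above a maximum for fibroblast, keratinocyte or B cell markers had been left out. These markers then summed to at most 0.352 UMIs per 10,000 in any library of the 9 classes.

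Over all immune cells, the 31 structural subunits summed to 22.8 and 22.8 UMIs per 10,000 in control skins and to 32.9 and 32.0 in tumors. Both tumors thus lay well above both control skins. These sums hold cycling cells and cells outside the classes, which the class sums leave out. Within classes the gap was mostly narrower. Macrophage-like cells had 27.6 and 24.2 in control skins against 31.6 and 32.4 in tumors, and cDC2-like cells, which are conventional dendritic cells of type 2, had 28.4 and 27.5 against 40.9 and 40.7. Alpha beta T-like cells had 23.5 and 24.9 against 29.1 and 27.9. Monocyte-like cells (33.5 and 27.9 against 31.5 and 31.1) and NK-like cells (25.6 and 23.5 against 26.2 and 24.7) overlapped between groups. Median UMIs per cell differed there, at 17928 and 12787.5 against 10556 and 10300 in monocyte-like cells. NK-like cells had 11326 and 13839 against 8129 and 7649.5. Macrophage-like cells went the other way, with 17253 and 14138 against 18267.5 and 18866. The part of depth in these sums was not tested. The mix of classes differed between skin and tumor at the same time. The parts of this mix, of cycling cells and of cells outside the classes in the gap over all immune cells were not tested. These sums are scaled by library totals, on which genes in general lay higher in tumors in some classes. In macrophage-like cells both tumors lay above both control skins for 37.3% of all genes tested and below for 12.8%.

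Neutrophil-like cells were lowest among the classes compared, at 5.70 and 8.01 in control skins and 8.06 and 11.5 in tumors. In control skin, Langerhans cell-like (19.8 and 20.4), DETC-like (20.9 and 20.6) and gamma delta T-like cells (21.0 and 20.5) came next, close to each other. Monocyte-like, cDC2-like and macrophage-like cells stood above them, with ranges that overlapped. In tumors cDC2-like cells led the 9 classes, and macrophage-like and monocyte-like cells lay close together below them. Type 1 dendritic (cDC1-like) cells, too few in tumor 2 for a test, had 30.3 and 25.4 in control skins and 49.0 in tumor 1. Mature dendritic (mDC-like) cells had 35.1 and 33.8 in tumors and were too few in control skin. Group 2 innate lymphoid (ILC2-like) cells had 25.1 and 22.4 in control skins and 16.4 in tumor 1, from 16 cells.

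**Figure D1:**
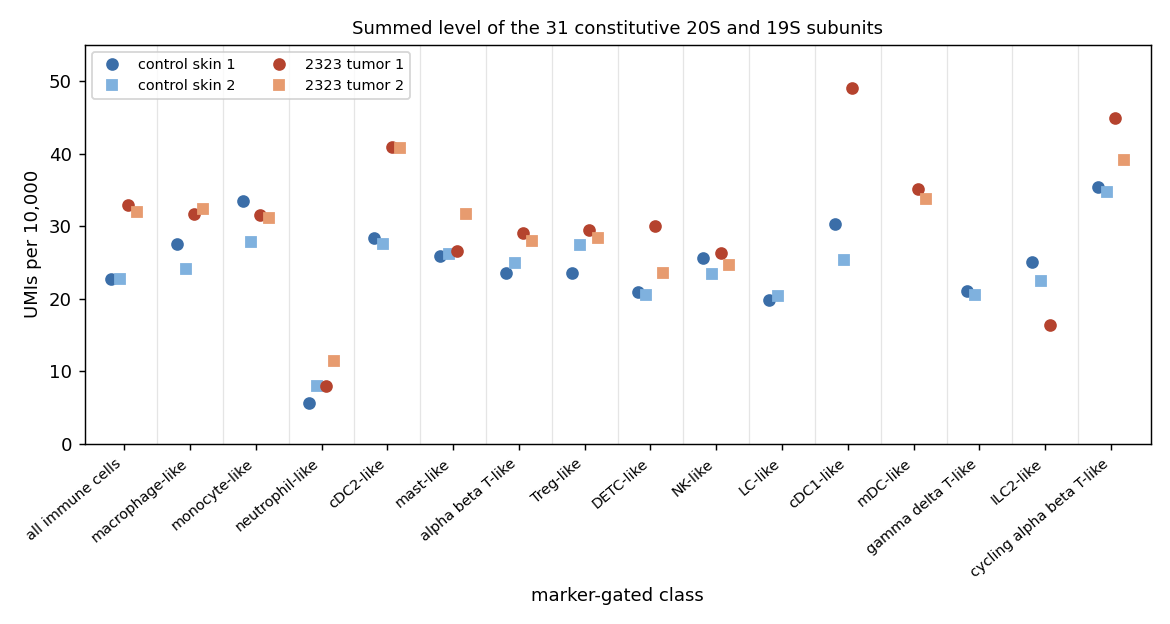
Summed UMIs per 10,000 of the 31 structural subunits (vertical axis) in each marker-gated class (horizontal axis), 1 point per library with at least 10 cells of the class; blue, control skins, and red or orange, 2323 tumors. Tumor points lie near 41 in cDC2-like cells against 27.5 and 28.4 in control skins, and neutrophil-like cells are lowest in all 4 libraries.

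In macrophage-like cells no member passed the test between tumor and control, where edgeR called 1.05% of 11643 genes (adjusted p under 0.05). Of 41 members tested, 3 had an unadjusted p under 0.05: Psme2, Psme1 and the ATPase Psmc2. The share of all genes under this unadjusted threshold was not counted, here or in the comparisons below. Such counts therefore do not show whether members stood out. Psme1 had 1.88 and 1.58 UMIs per 10,000 in control skins and 3.70 and 2.35 in tumors. Its log2 fold change was 0.63 (SE 0.23, edgeR adjusted p = 0.280). Both tumors lay above both controls, with tumor 1 well above tumor 2. Psme2 had 1.03 and 0.931 against 1.89 and 1.42, a log2 fold change of 0.57 (SE 0.19, edgeR adjusted p = 0.223). None of the catalytic genes had an unadjusted p under 0.05: Psmb5 had 0.958 and 0.616 against 0.775 and 0.822, Psmb6 1.31 and 1.28 against 1.33 and 1.45, and Psmb7 0.838 and 0.699 against 0.831 and 0.858. Only for Psmb6, among these 3, did both tumors lie above both controls in UMIs per 10,000, by a narrow margin. The TMM-scaled fold change was above 0 for none of the 3, with a list median of -0.07 on the log2 scale. All 7 alpha ring genes and all 6 ATPases had fold changes above 0, with list medians of 0.27 and 0.13 on the log2 scale, beside 0.03 for all genes. Of the 31 structural subunits, 21 had both tumors above both control skins and 0 had both below, where 37.3% of all genes tested lay above and 12.8% below. Markers of other cells differed here too: the 4 Langerhans cell markers summed to 1.68 and 1.25 in control skins against 0.0915 and 0.282 in tumors, the 5 cDC1 markers to 2.82 and 2.51 against 5.21 and 5.69, and the 6 neutrophil markers to 1.20 and 1.22 against 2.00 and 2.00. Their part in the result was not tested. DESeq2 also called 0 members here.

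In cDC2-like cells, which take up antigen for T cells, 3 of 37 members were called between tumor and control. All 3 were higher, where edgeR called 5.11% of 6552 genes higher. Psme2 had 0.876 and 1.06 UMIs per 10,000 in control skins and 2.84 and 2.68 in tumors, and it rose by a log2 fold change of 1.34 (SE 0.24, edgeR adjusted p = 0.00954). The groups were far apart. Psme1 had 1.69 and 2.30 against 6.30 and 3.78 and rose by 1.18 (SE 0.29, edgeR adjusted p = 0.0312), with the tumors themselves well apart. Psma1, an alpha ring gene, had 0.571 and 0.644 against 1.35 and 1.31 and rose by 0.96 (SE 0.25, edgeR adjusted p = 0.0413). The catalytic Psmb5 (0.647 and 0.524 against 1.12 and 1.25) and Psmb6 (0.990 and 0.939 against 1.68 and 1.88) kept the groups apart but missed the threshold, with edgeR adjusted p = 0.0672 and 0.0855. Psmb7 had 0.761 and 0.557 against 0.929 and 0.846. Among the 31 structural subunits, 28 had fold changes above 0, with a median of 0.39 on the log2 scale beside 0.04 for all genes, and 27 had both tumors above both control skins, where 38.4% of all genes did.

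The cells gated as cDC2-like were not alike in other markers. The 7 monocyte markers summed to 2.91 and 4.53 UMIs per 10,000 in control skins and 14.6 and 9.89 in tumors, and the 6 cDC2 markers to 24.1 and 23.9 against 16.1 and 16.6. The part of this in the calls was not tested. Without control skin replicate 1, 1 of the 3 calls stayed, Psme2 (edgeR adjusted p = 0.0446). DESeq2 called 2 members, and scaling by library totals in place of TMM raised the count to 6. No share of all genes is given beside these counts. In simulated counts of this class, 7.1% of calls at a log2 change of 2 were false.

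In alpha beta T-like cells 1 of 39 members was called, where edgeR called 3.32% of 9726 genes higher. Psme2 had 0.975 and 1.15 UMIs per 10,000 in control skins against 2.34 and 1.81 in tumors, a log2 fold change of 0.85 (SE 0.19, edgeR adjusted p = 0.0497). The groups did not overlap, but in simulated counts of this class false calls ran above the nominal rate, the call sat at the threshold and was lost in most alternatives, with adjusted p from 0.0501 to 0.255 where it was lost, the edgeR and DESeq2 tests (DESeq2 adjusted p = 0.0737) included. Psme1 had 1.21 and 1.83 against 3.92 and 2.34 (log2 fold change 0.94, SE 0.30, edgeR adjusted p = 0.115). Psmd10, which encodes gankyrin, a chaperone of the 19S base, had only 0.0607 and 0.0608 against 0.184 and 0.134. Psmd1, a large base subunit, went the other way, with 0.668 and 0.782 against 0.576 and 0.571 (log2 fold change -0.46, edgeR adjusted p = 0.176). Psmb5 (0.604 and 0.626 against 0.782 and 0.796), Psmb6 (0.739 and 0.843 against 0.772 and 0.972) and Psmb7 (0.536 and 0.652 against 0.732 and 0.768) had adjusted p of 0.464 or more. Markers of other cells also differed here: the 4 Langerhans cell markers summed to 6.73 and 1.63 in control skins and 0.162 and 0.183 in tumors, and the 7 monocyte markers to 2.34 and 4.77 against 9.21 and 7.44. Their part in these values was not tested.

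No member was called in the other 6 classes, where edgeR called 0.137% of genes in monocyte-like, 0.0% in neutrophil-like, 3.49% in mast-like, 2.26% in Treg-like, 0.0% in DETC-like and 3.52% in NK-like cells. At an unadjusted p under 0.05, with no share of all genes counted beside it, there were 0 of 38 members in monocyte-like, 1 of 14 in neutrophil-like and 4 of 18 in mast-like cells. There were 2 of 37 in Treg-like, 2 of 40 in DETC-like and 1 of 34 in NK-like cells. DESeq2 called 0 members in each of these 6 classes. Psmd4, the ubiquitin receptor of the 19S base, was among those in mast-like cells, but it had 2, 1, 15 and 16 UMIs there and was tested only through its tumor counts. Median fold changes of the members, beside those of all genes, were -0.07 and 0.01 in monocyte-like, 0.36 and -0.02 in neutrophil-like, 0.69 and 0.00 in mast-like, 0.26 and 0.00 in Treg-like, 0.19 and -0.25 in DETC-like and 0.06 and 0.02 in NK-like cells, all on the log2 scale. In neutrophil-like and mast-like cells a member had to reach a minimum count to be tested, and 14 and 18 of the 42 did.

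**Figure D2:**
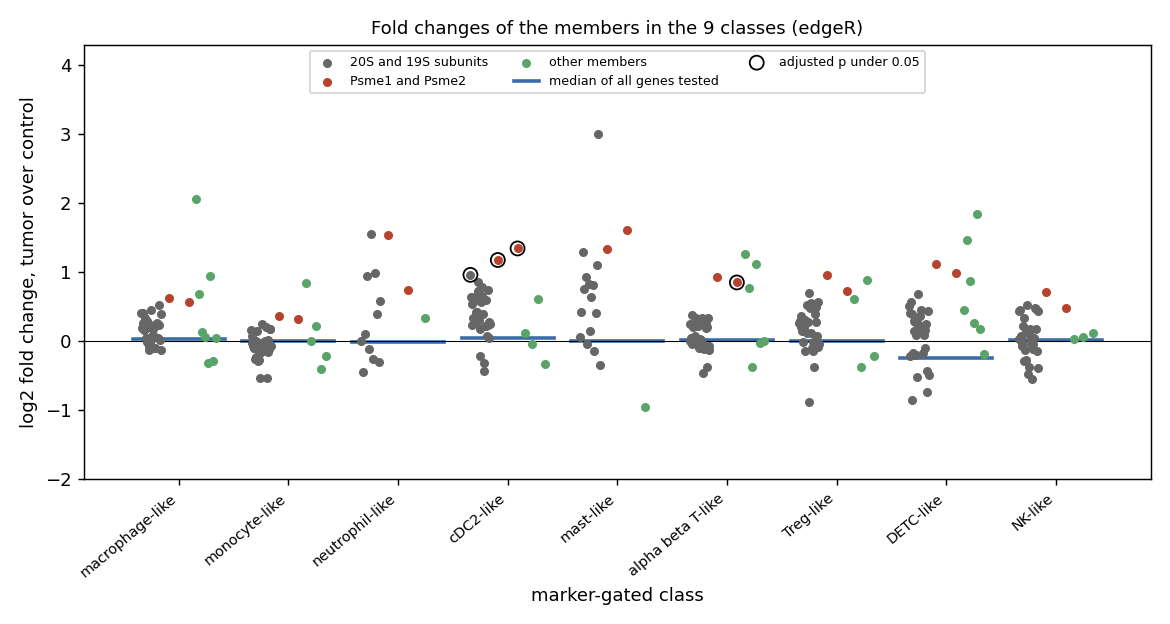
Log2 fold change of tumor over control (vertical axis, edgeR) for every member tested in each of the 9 classes (horizontal axis); gray, structural subunits, red, Psme1 and Psme2, and green, the other members. Blue lines give the median of all genes tested and black circles an adjusted p under 0.05: Psma1, Psme1 and Psme2 in cDC2-like and Psme2 in alpha beta T-like cells. Red points lie above 0 in all 9 classes.

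Among the members tested in all 9 classes, only Psme1 and Psme2 had both tumors above both control skins in each, in UMIs per 10,000. Most members were tested in fewer classes, with 14 of the 42 tested in neutrophil-like cells, and could not meet this. TMM-scaled fold changes of Psme1 and Psme2 were above 0 in each class. Psmd10 could be tested in only 4 classes, and both tumors lay above both control skins in all 4. Of 1277 genes tested in all 9 classes, 0.861% (11 genes) had both tumors above both control skins in each. These 11, looked up after their values were seen, were Psme1, Psme2, Psmb8, the interferon-induced Rsad2, the heat shock genes Hspa1a, Hspa1b, Hspa8, Hsph1, Hsp90ab1 and Dnaja1, and Swt1. The classes come from the same 4 libraries, so 9 classes are not 9 independent comparisons. Psme1 ranged from 0.133 and 0.430 UMIs per 10,000 in neutrophil-like cells of control skin to 6.30 in cDC2-like cells of tumor 1. Counts were low in the smallest classes: neutrophil-like and mast-like cells of control skin 1 held 75464 and 38252 UMIs of all genes. Levels and group gaps there rest on few UMIs of Psme1 and Psme2. The smallest gap for Psme1 was in monocyte-like cells (2.15 and 2.09 against 3.78 and 2.22) and for Psme2 also there (1.51 and 1.12 against 2.06 and 1.55). Treg-like cells had Psme1 at 1.64 and 1.80 against 4.36 and 2.41, and NK-like cells at 1.85 and 2.34 against 3.94 and 2.90. Tumor 1 was above tumor 2 for Psme1 in 8 of the 9 classes, all but neutrophil-like cells.

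The 6 heat shock genes moved with the groups as well. Their sum was 70.5 and 62.5 UMIs per 10,000 in macrophage-like cells of control skin against 111 and 133 in tumors, 51.8 and 42.7 against 128 and 175 in cDC2-like cells, and 48.2 and 43.7 against 119 and 118 in alpha beta T-like cells. Their part in the proteasome values was not tested.

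**Figure D3:**
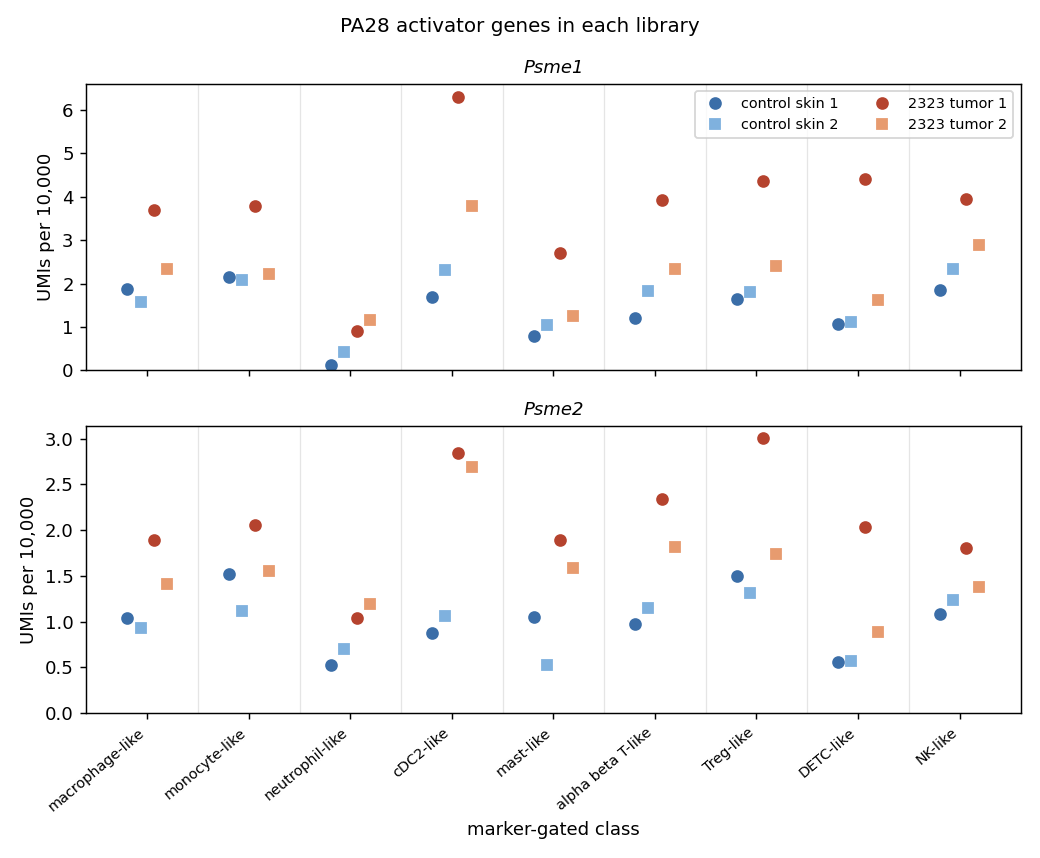
UMIs per 10,000 of Psme1 (upper panel) and Psme2 (lower panel) on the vertical axes in the 9 classes (horizontal axis), 1 point per library; blue, control skins, and red or orange, 2323 tumors. Both tumors lie above both control skins in all 9 classes, most clearly in cDC2-like cells.

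The highest levels of PA28 genes were in mDC-like cells of tumor 1. These cells carry Ccr7 and Fscn1. Psme1 was at 11.9 and 5.63 UMIs per 10,000 there, and Psme2 at 11 and 6.44, from 48 and 12 cells. cDC1-like cells, which are known for presenting antigen on MHC class I, had Psme1 at 4.01 and 3.42 in control skins and 10.0 in tumor 1. Langerhans cell-like cells of control skin had 0.615 and 0.736. No test was made in these classes, since at least 1 library had under 10 cells.

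Psme3, Psme4 and Psme2b, the other activators, were called in no class. Psme4 encodes PA200, a nuclear cap, and had 1.64 and 1.54 UMIs per 10,000 in macrophage-like cells of control skins against 1.93 and 1.78 in tumors. In alpha beta T-like cells it had 1.76 and 1.48 against 1.79 and 1.78. Both tumors thus lay above both controls in UMIs per 10,000 in these 2 classes. In alpha beta T-like cells the margin was narrow, and the TMM-scaled fold change of Psme4 was not above 0. In mast-like and Treg-like cells both tumors lay below, and its smallest edgeR adjusted p over the 9 classes was 0.372, in mast-like cells. Psme3, which encodes nuclear PA28 gamma, had 0.274 and 0.165 against 0.191 and 0.197 in macrophage-like cells, which overlapped. Tumors lay above controls in 3 of the 6 classes tested (cDC2-like, Treg-like and DETC-like), with 0.114 and 0.175 against 0.271 and 0.233 in cDC2-like cells, and the smallest edgeR adjusted p was 0.419. Psme2b had 1518 UMIs in all. It lies over 2 genes on the same strand and is a near copy of Psme2, so its counts are uncertain. In macrophage-like cells it had 0.0427 and 0.0413 against 0.157 and 0.0259, and in alpha beta T-like cells 0.0472 and 0.0348 against 0.143 and 0.0493. Tumors lay above controls in 2 of the 3 classes where it was tested.

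Some members were hardly present. Psma8, known from testis, had 234 UMIs in the 4 libraries and Psmb11, the thymus subunit, 20. Psmb11 was tested in no class. Psmc3ip, a recombination factor that shares only its name with the ATPase Psmc3, had 661 UMIs, and the chaperone genes Psmd5, Psmd9 and Psmd10 between 2903 and 4020. The summed level of these 3 chaperones was 0.581 and 0.426 against 0.539 and 0.526 in macrophage-like cells and 0.418 and 0.565 against 0.704 and 0.634 in alpha beta T-like cells.

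Whether the tumor difference itself varied between classes was tested for 3 pairs. edgeR called 0.289% of genes between macrophage-like and alpha beta T-like cells, 2.87% between macrophage-like and cDC2-like cells and 1.27% between alpha beta T-like and NK-like cells, and 0 members in each. At an unadjusted p under 0.05 there were 2, 3 and 1 members. The 3 between macrophage-like and cDC2-like cells were Psmb5 (difference of log2 fold changes -0.92, SE 0.31, edgeR adjusted p = 0.157), Psmb6 (-0.75, SE 0.27, adjusted p = 0.190) and Psme2 (-0.71, SE 0.28, adjusted p = 0.247), all with the smaller change in macrophage-like cells. DESeq2 was not run on these differences.

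The largest number of members was called between cycling and non-cycling cells. Cells with at least 5 UMIs of Mki67 and Top2a were kept out of the classes above, and there were 34, 21, 125 and 17 cycling alpha beta T-like cells. Their structural subunits summed to 35.4, 34.7, 44.9 and 39.2 UMIs per 10,000, against 23.5, 24.9, 29.1 and 27.9 in the non-cycling cells of the same libraries. All 4 libraries moved the same way. With the library as a block, edgeR called 16 of 40 members higher and 1 lower, where it called 9.39% of 9554 genes higher and 8.44% lower. All 3 catalytic genes rose, and so did 4 of 7 alpha ring genes, 3 of 4 structural beta ring genes, 2 of 6 ATPases and 3 of 8 lid genes. All 31 structural subunits had fold changes above 0, with a median of 0.48 on the log2 scale beside -0.04 for all genes.

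The smallest p-values were those of Psmb4, Psmb6 and Psmc3. Psmb4, a structural beta subunit, had 0.789, 0.773, 1.11 and 1.06 UMIs per 10,000 in non-cycling cells and 1.40, 1.52, 1.91 and 1.97 in cycling cells of the same libraries (log2 fold change 0.77, SE 0.12, edgeR adjusted p = 0.00318). Psmb6 had 0.739, 0.843, 0.772 and 0.972 against 1.32, 1.71, 1.66 and 1.53 (0.83, SE 0.14, adjusted p = 0.00357). Psmc3 had 0.597, 0.504, 0.698 and 0.543 against 1.33, 1.34, 1.12 and 1.17 (0.96, SE 0.16, adjusted p = 0.00376). For these 3 genes no cycling value overlapped with a non-cycling one. Psme4 was the member that fell: 1.76, 1.48, 1.79 and 1.78 in non-cycling cells against 1.20, 1.05, 1.28 and 1.13 in cycling cells (-0.63, SE 0.12, adjusted p = 0.00858). Psme1 (0.08) and Psme2 (0.23) had small fold changes and were not called. Psmc3ip, at 0.0270 UMIs per 10,000 or less in non-cycling cells, was at 0.152, 0, 0.175 and 0.233 in cycling cells and was called higher.

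Depth differed between the cells compared. Cycling cells had medians of 15765 to 22208 UMIs per library and non-cycling cells 8483 to 9759. With non-cycling cells limited to those at or above the lower quartile of the cycling cells of their library (42, 16, 35 and 39 cells), edgeR called 3 members: Psmc3 (log2 fold change 0.93, adjusted p = 0.0234), Psmb3 (0.69, adjusted p = 0.0426) and Psmc3ip. The median of the structural subunits was then 0.27 beside -0.01 for all genes, with 30 of 31 above 0. Without tumor replicate 1, which held most of the cycling cells, 3 members were called, and without control replicate 1 or tumor replicate 2, 9 in each case. No share of all genes is given beside the counts at matched depth or without a library. These counts do not show whether calls were lost among members in particular.

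**Figure D4:**
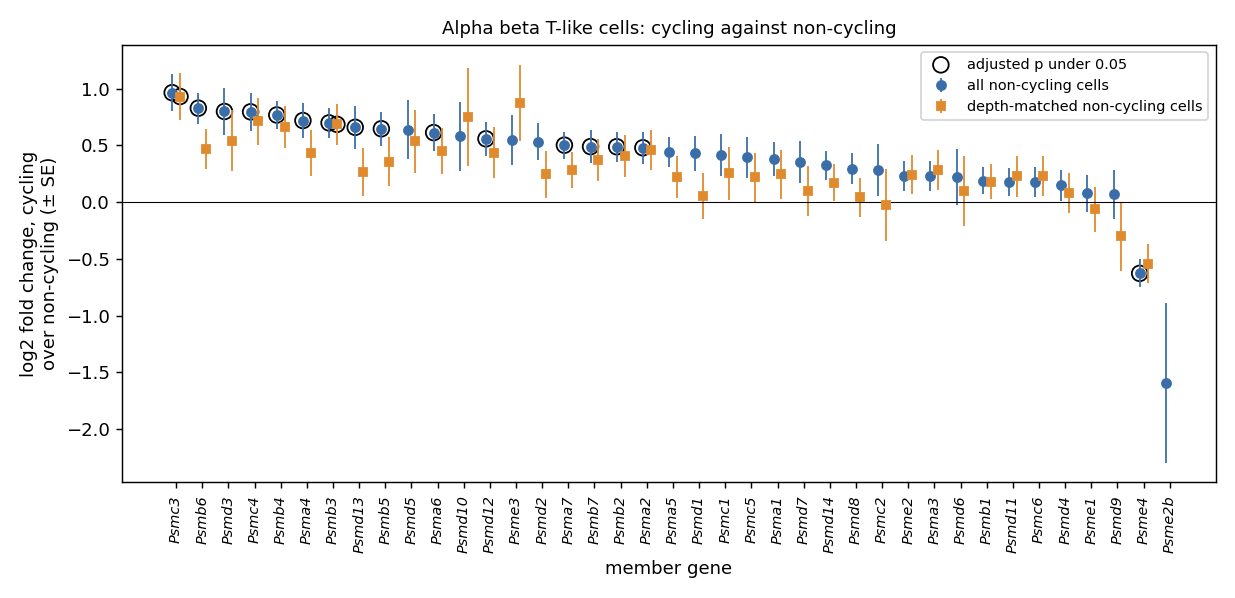
Log2 fold change of cycling over non-cycling alpha beta T-like cells (vertical axis, edgeR, bars SE) for each member tested except Psmc3ip (horizontal axis, ordered by value); blue, against all non-cycling cells, and orange, against non-cycling cells of matched depth. Black circles give an adjusted p under 0.05; most orange points lie above 0 but below the blue ones, and Psme4 is below 0 in both.

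Psmb8, Psmb9 and Psmb10 were set against the constitutive genes whose place they take. In macrophage-like cells the ratio of Psmb8 to Psmb5 UMIs came to 1.77 and 2.50 for control skins against 4.56 and 3.78 for tumors, and in alpha beta T-like cells that of Psmb9 to Psmb6 was 0.502 and 0.577 against 2.05 and 1.47. Psmb10 to Psmb7 was 0.878 and 1.04 against 1.57 and 1.27 in macrophage-like cells and 0.453 and 0.680 against 1.17 and 0.697 in alpha beta T-like cells. In the CD4 part of the latter the groups overlapped for Psmb10 to Psmb7 (0.438 and 1.16 against 0.842 and 0.528) and for Psmb8 to Psmb5 (3.27 and 6.69 against 6.12 and 4.17). A ratio was taken where every library had UMIs of both genes, with no other minimum. Tumors lay above control skins in all 8 such classes for Psmb8 to Psmb5. They did so in 6 of 7 for Psmb9 to Psmb6 (not NK-like cells) and in 6 of 7 for Psmb10 to Psmb7 (not DETC-like cells). Some counts were low: mast-like cells of control skin 1 had 2 UMIs each of Psmb8 and Psmb5, and DETC-like cells of tumor 1 had 8 of Psmb5. Each two-sided exact permutation test that kept the groups apart gave p = 0.33, the smallest that 2 against 2 allows. edgeR called Psmb8, Psmb9 and Psmb10 higher in cDC2-like cells and Psmb8 and Psmb9 in alpha beta T-like cells, Psmb9 in Treg-like cells and Psmb8 in mast-like cells, and Psmb5, Psmb6 and Psmb7 in none of these.

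**Figure D5:**
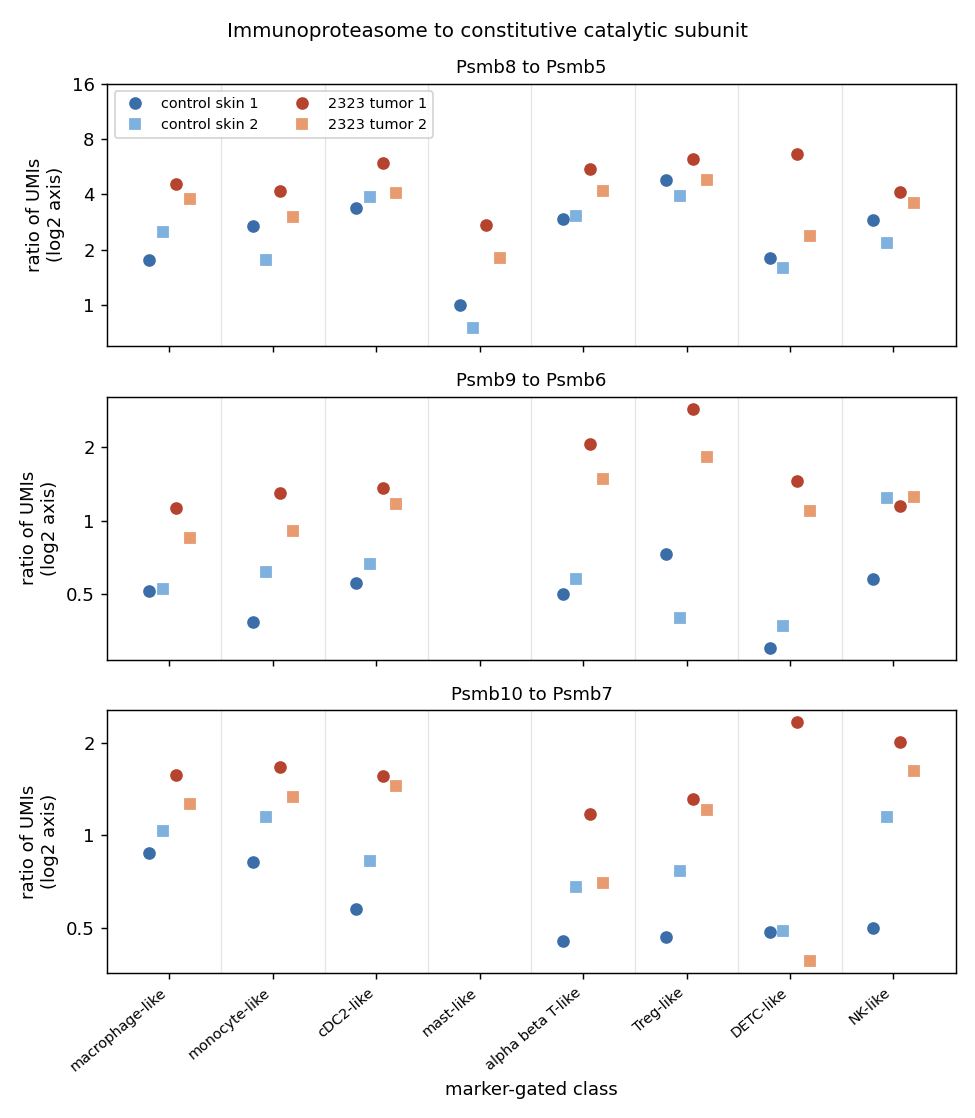
Ratio of UMIs of Psmb8 to Psmb5, Psmb9 to Psmb6 and Psmb10 to Psmb7 (vertical axes, log2 scale) in the classes (horizontal axis), 1 point per library; blue, control skins, and red or orange, 2323 tumors. Tumor ratios lie above those of control skins except for Psmb9 to Psmb6 in NK-like and Psmb10 to Psmb7 in DETC-like cells. Mast-like cells had UMIs of both genes in every library for 1 ratio only.

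Other genes of the pathway came from fixed lists. Of the 5 chaperones of 20S assembly (Psmg1 to Psmg4 and Pomp), 0 were called between tumor and control in any class, and Pomp rose in cycling alpha beta T-like cells (log2 fold change 0.57, edgeR adjusted p = 0.0244). Of 8 other proteasome proteins tested, 0 were called between tumor and control. Uchl5 (0.86) and Txnl1 (0.44) rose in cycling cells and AI314180 (-0.47) fell. Of 13 genes of ubiquitin and proteasome transcription, 0 were called between groups and 2 fell in cycling cells, among them Nfe2l2 (-0.81), which encodes the transcription factor NRF2. Of 10 genes of class I peptide loading, 2 were called in cDC2-like cells, the peptide transporter Tap1 (1.55, edgeR adjusted p = 0.0171) and Tapbpl (2.55, adjusted p = 0.0246).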

How the data were processed

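CD45+ cells of 2 control skins and 2 tumors were profiled by 10x 3′ single-cell RNA-seq. The authors mapped reads to mm10 with Cell Ranger, 7.1.0 in their methods and 7.0.1 in the matrix header, and deposited UMI counts per gene and cell, with no normalization. Cells with at least 1000 UMIs, 100 genes and a log10 gene to log10 UMI ratio of 0.8, and at most 15% mitochondrial UMIs, were kept, as in the study. Classes were gated on minimum UMIs of marker genes and maximum UMIs of markers of other cells. The maximum was 1 UMI of Cd3d, Cd3e and Cd3g for macrophage-like cells and 4 of C1q genes for cDC2-like cells, among others. Gates were set after marker distributions were seen and without the members. Cells in more than 1 gate were left out of the classes, and no doublet caller was run. UMI counts were summed per library and class (at least 10 cells) and tested in edgeR 4.0.16 (TMM, filterByExpr, quasi-likelihood test, Benjamini-Hochberg over all genes of the class, threshold 0.05), with DESeq2 1.42.0 as an alternative. Library totals of the deposited files were 34893543 to 73904272 UMIs. Standard errors were the log2 fold change divided by the root of the edgeR F statistic. The scripts were tested on simulated counts, where changes of 1 on the log2 scale were mostly missed in every class. An absent call therefore does not show an absent change. At a log2 change of 2, false calls made up 4.1% of calls in mast-like cells and exceeded the nominal rate in every other class. Their share was 7.1% in cDC2-like, 17.3% in alpha beta T-like and 17.8% in DETC-like cells. At a log2 change of 1 this share ran from 0 to 66.7% among few calls, highest in alpha beta T-like cells. Genes described in full were the catalytic genes, Psme1 to Psme4, called members (the 3 of smallest p outside macrophage-like and alpha beta T-like cells) and members under a low count, and others were named after their values were seen. The members and gene lists were chosen with earlier results of these data known. Gene positions are those of GENCODE for GRCm38, and sequences are RefSeq's. Some items of the model's genotype and of the gene lists are not reported here.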

Additional observations from a re-analysis of the deposited data

How the results depend on the processing

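Psme2 in cDC2-like cells stayed past the threshold in every alternative run. The call of Psme2 in alpha beta T-like cells (1 member) was lost, leaving 0, with DESeq2 size factors, with the DESeq2 test, with doubled gate minimums, with cycling cells kept and with no mitochondrial filter, and with no filter on low counts 2 members were called. The cause was not tested. No share of all genes is given beside the counts of called members in this section. Such counts do not show whether members stood out from other genes. In cDC2-like cells library totals gave 6 members. In mast-like cells DESeq2 size factors gave 1. With no filter on low counts, 1 member was called in macrophage-like, 1 in mast-like and 1 in Treg-like cells. With each library left out in turn, calls ranged from 0 to 2 in macrophage-like, 1 to 3 in cDC2-like, 0 to 2 in mast-like, 0 to 2 in alpha beta T-like, 0 to 2 in Treg-like, 0 to 4 in DETC-like and 0 to 1 in NK-like cells and from 3 to 15 for cycling cells, which depth matching, chosen after the data were seen, brought to 3. The highest counts in macrophage-like, mast-like, alpha beta T-like, Treg-like, DETC-like and NK-like cells were those without tumor replicate 2, where the lone tumor is assumed to vary like the controls, and 1 member was called in mast-like cells without control replicate 1 and in Treg-like cells without control replicate 2. Replicate numbers are shared by the groups. Deviations of the replicate 1 samples from their group means had a correlation of 0.009 over 4613 genes, in sums of all immune cells. This single value cannot show whether same-numbered samples were processed together. With a replicate block, 1 member was called in cDC2-like, 0 in alpha beta T-like and 1 in mast-like cells. Library totals in place of TMM moved the median of all genes from 0.03 to 0.21 in macrophage-like, from 0.01 to 0.15 in monocyte-like, from 0.04 to 0.20 in cDC2-like, from 0.00 to -0.28 in mast-like, from 0.02 to 0.16 in alpha beta T-like and from -0.25 to 0.04 in DETC-like cells (log2), and the members' median in monocyte-like cells from -0.07 to 0.08.

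For the log2 change of catalytic ratios, doubled gates gave 1.59 for Psmb9 to Psmb6 in cDC2-like cells and 0.61 for Psmb10 to Psmb7 in the CD8 part of alpha beta T-like cells. The sign turned for Psmb9 to Psmb6 in NK-like cells without control replicate 1 (-0.06, range -0.06 to 1.05), for Psmb10 to Psmb7 in DETC-like cells without tumor replicate 1 (-0.32, range -0.32 to 2.27), and, in the CD4 part of alpha beta T-like cells, for Psmb8 to Psmb5 without control replicate 1 (-0.41) or tumor replicate 1 (-0.16, range -0.41 to 0.63) and for Psmb10 to Psmb7 without control replicate 2 (0.61) or tumor replicate 2 (0.24, range -0.80 to 0.61). Doubled gates moved the tumor minus control gap of the structural sum from 2.90 to 5.72 UMIs per 10,000 in neutrophil-like and from 4.28 to 5.56 in alpha beta T-like cells. Doubled gates were not run for DETC-like cells, of which they left 6 in tumor 1. Few UMIs limited the tests in mast-like and neutrophil-like cells, where most members missed the count minimum.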
